A study of Homo sapiens with 8 samples.

Results

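Expression of 5 genes of fibroblast growth factor (FGF) signalling was followed across Polycomb knockdowns in a skin cancer cell line: the ligand FGF2, the secreted carrier FGFBP1 and the receptors FGFR1, FGFR2 and FGFR3. They were listed by name, and all 5 had an annotated probe set, 1 each, among the 14884 named genes of the array. Probe sets were chosen by the highest mean over the 8 arrays where a gene had several, which left nothing to choose for these 5. The group of genes was selected on FGF signalling with the higher FGF2 value on the shEZH2 arrays already known, so the FGF2 values with shEZH2 are given as a description, with no test.

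FGF2 is a secreted growth factor that reaches the cell surface without a signal peptide and is held there and in the matrix by heparan sulfate, which it needs to bind its receptors firmly. FGFBP1 releases FGF2 from that store. The receptors are tyrosine kinases that signal through the adaptor FRS2 to RAS and the MAP kinases. Their products switch on ETV transcription factors and the Sprouty and DUSP inhibitors that damp the signal. In skin, keratinocytes mainly carry the epithelial splice form of FGFR2, which answers to FGF7 and FGF10 from the dermis, while FGFR1 is typical of mesenchymal cells, and FGF2 is known as a growth factor for fibroblasts, vessels and keratinocytes.

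RNA was hybridised to 8 whole-transcript arrays. The cells are labelled SCC13, a line established from a squamous cell carcinoma of human skin. They carried a short hairpin RNA against GFP (shGFP, taken here as the control), RING1B (shRING1B), EZH2 (shEZH2) or BMI1 (shBMI1). Each of the 4 hairpins had 2 arrays. RING1B and BMI1 are subunits of Polycomb repressive complex 1, a ubiquitin ligase for histone H2A, and EZH2 is the methyltransferase of Polycomb repressive complex 2, both of which repress genes. The labels give no other treatment and no time after the hairpin was introduced. They leave unsaid whether arrays of a hairpin are separate cultures, so the spread behind the p-values is that between arrays and could be technical.

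EZH2 mRNA was lower on both shEZH2 arrays, at 8.99 ± 0.05 (SD, n = 2), than with shGFP, at 9.90 ± 0.10 (SD, n = 2), with a log2 fold change of -0.91 ± 0.12 (SE; limma adjusted p = 0.0183). BMI1 and RNF2, the gene of RING1B, were not analysed here. Every array is labelled SCC13 as its cell line, but the shEZH2 titles start with SCCL3 and the other 6 with SCC13. A line or batch tied to that prefix and the hairpin itself cannot be told apart in any shEZH2 value below. Across genes, shEZH2 arrays correlated with the other arrays at 0.992 to 0.993. Arrays of different hairpins among the other 3 correlated at 0.993 to 0.996, and arrays of the same hairpin at 0.995 to 0.996. Of 10 keratinocyte markers, the 3 measured (KRT5, KRT14 and DSG3) averaged 9.95 to 10.14 on the log2 scale with shGFP, 9.45 to 9.69 with shRING1B, 9.89 to 9.93 with shEZH2 and 9.66 to 9.85 with shBMI1. None of the 3 passed the test over all genes. KRT14, a keratin of basal keratinocytes, had log2 fold changes of -0.50, -0.57 and -0.29 with shRING1B, shEZH2 and shBMI1 (limma adjusted p = 0.347, 0.0999 and 0.893), and DSG3, a desmosomal cadherin, -0.58, 0.43 and -0.48 (adjusted p = 0.311, 0.176 and 0.664). The part of these differences in the values below was not tested. TP63 was not analysed here. Fewer cells of a type and less RNA per cell cannot be told apart in such bulk samples.

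FGF2 was higher on all 6 Polycomb hairpin arrays than on both shGFP arrays, and highest with shEZH2. Its log2 values were 7.35 and 7.69 with shGFP, 8.01 and 8.13 with shRING1B, 8.89 and 8.99 with shEZH2, and 7.78 and 8.50 with shBMI1. Over all genes, 3.55% lay above both shGFP arrays on all 6 Polycomb arrays and 4.16% lay below. The shEZH2 arrays did not overlap with those of any other hairpin, as was the case for 23.1% of genes above shGFP, 22.6% above shRING1B and 22.9% above shBMI1, whereas the shRING1B values lay inside the span of the shBMI1 values.

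**Figure D1:**
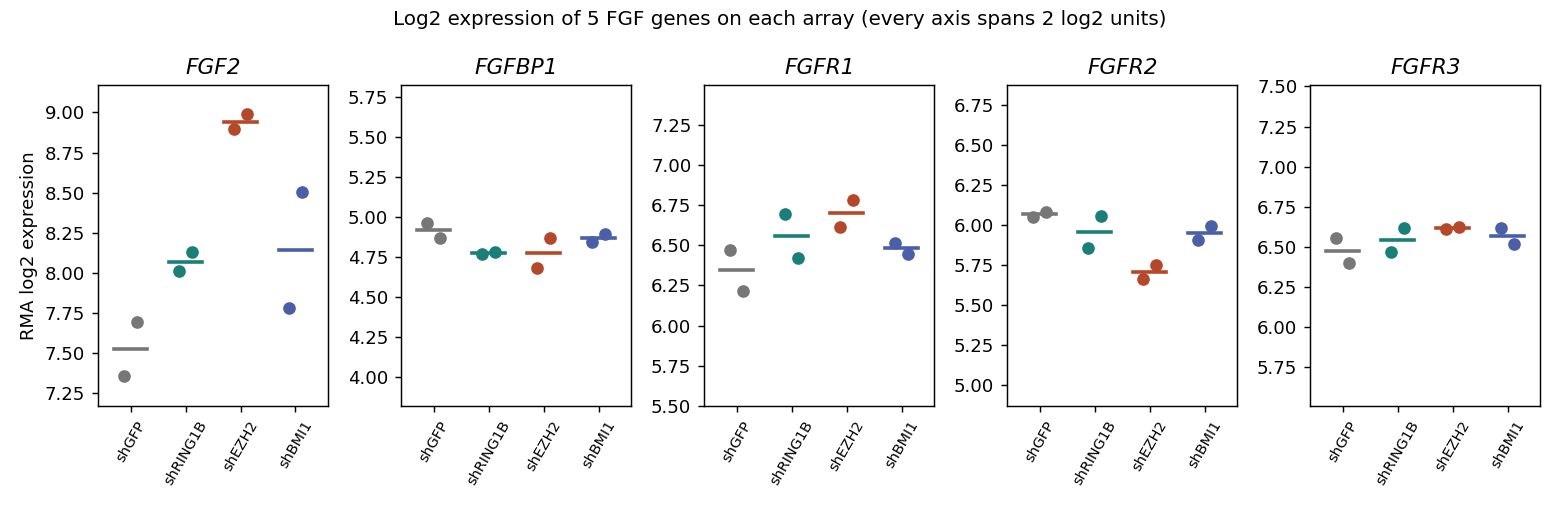
RMA log2 expression (y axis, 2 log2 units in every panel) of the 5 genes by hairpin (x axis), with 1 point per array and a bar at the mean of each pair. FGF2 runs from 7.35 on a shGFP array to 8.99 on a shEZH2 array, while the other 4 genes move by 0.22 to 0.57 over all arrays.

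With shEZH2, FGF2 averaged 8.94 ± 0.07 (SD, n = 2) against 7.52 ± 0.24 (SD, n = 2) with shGFP, a 2.67-fold higher level (log2 1.42 ± 0.22, SE). This was the 6th largest increase among the 14884 genes. Leaving out each array in turn moved this log2 fold change between 1.25 and 1.59. Next to shRING1B the shEZH2 mean was 1.83-fold higher and next to shBMI1 1.74-fold higher. The log2 difference from shBMI1 was 0.80, and it ran from 0.44 without shBMI1 replicate 1 to 1.16 without shBMI1 replicate 2.

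With shRING1B, FGF2 averaged 8.07 ± 0.08 (SD, n = 2), 1.46-fold above shGFP (log2 0.54 ± 0.22, SE; limma adjusted p = 0.538). With shBMI1 it averaged 8.14 ± 0.51 (SD, n = 2), 1.53-fold above shGFP (log2 0.62 ± 0.22, SE; limma adjusted p = 0.799). Neither passed the test over all genes, although both pairs lay above the shGFP pair, as did 18.2% of genes with shRING1B and 14% with shBMI1. These comparisons share the shGFP arrays with each other and with the shEZH2 comparison. The shBMI1 value rests on arrays that were 0.72 apart, a wider gap than 99.3% of genes showed in that pair. It was 0.26 without shBMI1 replicate 2 and 0.98 without shBMI1 replicate 1. The shRING1B arrays were 0.12 apart. In the order shGFP, shRING1B, shBMI1, shEZH2, the middle neighbours did not differ beyond their spread (log2 -0.07 for shRING1B minus shBMI1, 95% interval -0.57 to 0.42).

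The genomic spans of FGF2 and NUDT6, a Nudix hydrolase gene also known as the FGF2 antisense gene, overlap in the RefSeq annotation. NUDT6 was at 5.63 and 5.81 with shGFP and at 5.73 and 5.74 with shEZH2 (log2 fold change 0.02 ± 0.10, SE; limma adjusted p = 0.951). With shRING1B it read 5.60 and 5.499 (-0.17 ± 0.10; adjusted p = 0.701), below both shGFP arrays, as did 19.1% of genes. With shBMI1 it read 5.57 and 5.71 (-0.08 ± 0.10; adjusted p = 0.999). NUDT6 thus lay inside the shGFP pair with shEZH2, just below it with shRING1B and overlapping it with shBMI1, while FGF2 lay above its shGFP pair with all 3. Whether the probes tell the strands apart is not given in the sources used here.

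Polycomb complexes are known to gather at promoters rich in the dinucleotide CpG, so the bases before the RefSeq starts of FGF2 and FGFBP1 are shown, as the member with the widest range of values and the carrier that works with it. Both genes lie on chromosome 4. Each sequence holds the 250 bases before the start in GRCh38.p14, 5′ to 3′ on the strand of the gene, with every CpG (the motif CG) in capitals. The FGF2 window is chr4:122826581-122826830 on the plus strand and the FGFBP1 window is chr4:15938741-15938990 on the minus strand.
FGF2: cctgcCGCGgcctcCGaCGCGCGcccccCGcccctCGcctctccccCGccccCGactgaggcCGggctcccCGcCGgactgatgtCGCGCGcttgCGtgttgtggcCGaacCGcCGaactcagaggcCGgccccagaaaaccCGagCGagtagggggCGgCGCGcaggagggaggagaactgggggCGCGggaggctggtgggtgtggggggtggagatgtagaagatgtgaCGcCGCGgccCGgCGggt
FGFBP1: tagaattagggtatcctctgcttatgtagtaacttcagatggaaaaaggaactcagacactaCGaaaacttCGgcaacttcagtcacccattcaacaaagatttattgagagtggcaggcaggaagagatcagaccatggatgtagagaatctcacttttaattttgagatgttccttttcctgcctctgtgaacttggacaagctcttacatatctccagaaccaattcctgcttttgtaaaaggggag
The FGF2 window held 33 CpG at 75.2% G and C, and 10.8% of 13725 windows of the same length from protein-coding genes of the array held at least as many. The FGFBP1 window held 2 CpG at 40.8% G and C, and 93.2% of windows held at least as many. FGFR3 had 40 CpG in its window, and 2.9% of windows held at least as many. FGFR2 had between 3 and 42 over its 5 listed starts, and 1.7% of windows held at least 42. Both thus had a window with more CpG than that of FGF2, although FGFR3 varied least and FGFR2 was lower with shEZH2. A link between CpG count and the changes was not tested. CG reads the same on both strands. The count describes these letters only, and no binding, histone mark or methylation was measured in these samples.

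FGFBP1 was close to flat. Its log2 values were 4.97 and 4.87 with shGFP, 4.77 and 4.78 with shRING1B, 4.68 and 4.87 with shEZH2, and 4.85 and 4.89 with shBMI1. The shRING1B arrays lay just below the shGFP arrays, as did 19.1% of all genes, and the shEZH2 and shBMI1 arrays overlapped with shGFP. The log2 fold change was -0.14 with shRING1B (95% interval -0.36 to 0.08), -0.14 with shEZH2 (-0.36 to 0.08) and -0.05 with shBMI1 (-0.26 to 0.17), and none passed over all genes (limma adjusted p = 0.76, 0.502 and 0.999). With shEZH2 the value ran from -0.23 to -0.047 over arrays left out. FGFBP1 lay in the dimmest 30% of genes by mean signal, where RMA compresses differences, so its fold changes may be understated.

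Among the receptors, FGFR1 was higher and FGFR2 lower with shEZH2, each by a small amount that did not pass over all genes. FGFR1, the receptor typical of mesenchymal cells, read 6.47 and 6.22 with shGFP, 6.70 and 6.42 with shRING1B, 6.61 and 6.78 with shEZH2, and 6.52 and 6.45 with shBMI1. Both shEZH2 arrays lay above both shGFP arrays, as did 23.1% of all genes, while the shRING1B and shBMI1 pairs overlapped with shGFP. The log2 fold change with shEZH2 was 0.36 ± 0.13 (SE; 95% interval 0.06 to 0.66; limma adjusted p = 0.242). It was 0.21 ± 0.13 with shRING1B (adjusted p = 0.717) and 0.14 ± 0.13 with shBMI1 (adjusted p = 0.999). On leaving out each array in turn, the value ran from 0.23 to 0.48 with shEZH2, 0.076 to 0.35 with shRING1B and 0.010 to 0.27 with shBMI1.

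FGFR2, the main FGF receptor gene of keratinocytes, read 6.05 and 6.08 with shGFP, 5.86 and 6.06 with shRING1B, 5.66 and 5.75 with shEZH2, and 5.91 and 5.995 with shBMI1. The shEZH2 arrays were the lowest pair and lay below every array of the other hairpins. Of all genes, 27% lay below shGFP with shEZH2, 25.6% below shRING1B and 24.1% below shBMI1. The shBMI1 pair also lay below shGFP, as did 17.8% of genes. The log2 fold change was -0.36 ± 0.10 with shEZH2 (SE; 95% interval -0.59 to -0.14; limma adjusted p = 0.137), -0.11 ± 0.10 with shRING1B (adjusted p = 0.831) and -0.12 ± 0.10 with shBMI1 (adjusted p = 0.996). Set against the other knockdowns, shEZH2 was lower by 0.25 than both shRING1B and shBMI1 (adjusted p = 0.275 and 0.289). In the order shEZH2, shBMI1, shRING1B, shGFP, the middle neighbours differed by 0.01 (95% interval of shRING1B minus shBMI1 -0.22 to 0.23).

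The difference of FGFR1 and FGFR2 on the same array, taken after their values were seen and set to 0 at the shGFP mean, was 0.14 and -0.14 with shGFP, 0.56 and 0.08 with shRING1B, 0.67 and 0.76 with shEZH2, and 0.33 and 0.18 with shBMI1. The shEZH2 pair was the highest. Its mean of 0.72 ± 0.06 (SD, n = 2) corresponds to a 1.64-fold shift of the ratio of FGFR1 to FGFR2 relative to shGFP. The shRING1B arrays were far apart, with 1 of them inside the shGFP span. The ratio was chosen on these values and is a description, with no test.

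FGFR3, a receptor of the growing epidermis, varied least. It read 6.55 and 6.40 with shGFP, 6.47 and 6.62 with shRING1B, 6.61 and 6.62 with shEZH2, and 6.62 and 6.51 with shBMI1. The shEZH2 pair lay above the shGFP pair, as did 23.1% of all genes, and the others overlapped with it. The log2 fold change was 0.14 with shEZH2 (95% interval -0.09 to 0.37), 0.07 with shRING1B (-0.16 to 0.29) and 0.09 with shBMI1 (-0.13 to 0.32), none past the threshold (limma adjusted p = 0.52, 0.909 and 0.999). With shEZH2 the value ran from 0.061 to 0.22 over arrays left out. Its range of 0.22 over the 8 arrays was narrower than that of all but 12.1% of genes, while the FGF2 range of 1.63 was wider than that of 99.8% of genes.

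**Figure D2:**
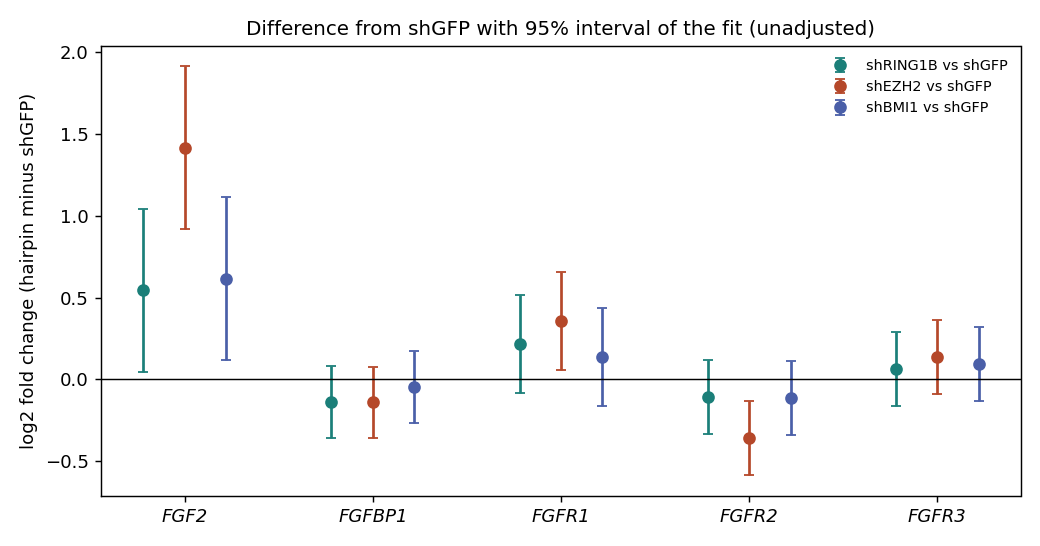
Log2 fold change against shGFP (y axis) of the 5 genes (x axis) for each Polycomb hairpin, with points at the estimate of the limma fit and bars for its 95% interval, unadjusted for the number of genes. The FGF2 estimates (0.54 with shRING1B, 1.42 with shEZH2, 0.62 with shBMI1) lie above those of the other 4 genes, which run from -0.36 to 0.36. The FGF2 value with shEZH2 was known when the genes were chosen. It is a description, and its bar is no test against 0.

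With shRING1B and shBMI1, 0 of 5 genes passed by limma, where 0% of all genes did. At an unadjusted p under 0.05 there was 1 of 5 in each of these comparisons (FGF2), against 8.6% and 5.58% of all genes. The genes were chosen with FGF2 known to be higher with shEZH2 than on these same shGFP arrays. The FGF2 entry is therefore a description, and the 1 of 5 is not an excess over all genes. Of the other 4 genes 0 had an unadjusted p under 0.05 with either hairpin. Between shRING1B and shBMI1 0 of 5 passed, where 0.0134% of all genes did, and 0 had an unadjusted p under 0.05, against 9.18%. In the comparisons with shEZH2 the count leaves out FGF2. Of the other 4 genes 0 passed against shGFP, where 0.732% of all genes did, 0 against shRING1B, where 0.578% did, and 0 against shBMI1, where 0.974% did. At an unadjusted p under 0.05 there were 2 of 4 against shGFP (FGFR1 and FGFR2), beside 16.2% of all genes. FGFR2 was the 1 of 4 against shRING1B, beside 15.6%, and against shBMI1, beside 15.1%.

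The rest of the pathway was described through 7 lists by role, which held 113 genes with 94 of them measured. None of the 94 passed over all genes by limma in any of the 3 comparisons with shGFP. At an unadjusted p under 0.05 there were 13 with shRING1B (13.8%), 21 with shEZH2 (22.3%) and 5 with shBMI1 (5.32%), beside 8.6%, 16.2% and 5.58% of all genes. Their median log2 fold change was 0.03, -0.03 and -0.02 in the same order, beside -0.0028, -0.0085 and -0.0094 for all genes. With shEZH2 and a variance that follows signal and resists outliers, 3 of the 94 passed: HSPG2 and VEGFA higher and EGR1 lower. In that fit 4.35% of all genes passed, so the count is near the background.

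The other 21 FGF genes on the list of ligands stayed near shGFP, with 0 past the threshold. That list also held FGF11, FGF12, FGF13 and FGF14, which are intracellular and not secreted ligands. With shEZH2 the log2 fold changes of the 21 genes ran from -0.37 to 0.36. FGF5, a ligand that ends hair growth, was at 6.54 and 6.62 with shGFP and at 6.21 on both shEZH2 arrays (log2 fold change -0.37 ± 0.09, SE; limma adjusted p = 0.12). FGF11, an intracellular member of the family, was at 7.83 and 7.80 with shGFP and 8.20 and 8.15 with shEZH2 (0.36 ± 0.10; adjusted p = 0.151). FGF18 was at -0.32 ± 0.13 with shEZH2 and -0.27 ± 0.13 with shBMI1. No ligand other than FGF2 thus reached a change of 0.5. The median level of these 21 genes was 5.49, beside 6.80 for all genes and 8.17 for FGF2. RMA compresses differences at dim signal, so changes of dim ligands may be understated. The FGF7 probe set is uncertain, since the array also names near-identical FGF7 pseudogenes.

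Of 9 genes on the list of other receptors, co-receptors and carriers, 0 passed. That list also held NUDT6, CEP43 and FIBP, which are not receptors, co-receptors or secreted carriers. FGFRL1, a receptor without a kinase domain, was lower on every Polycomb array than on both shGFP arrays, as were 4.16% of genes, with log2 fold changes of -0.19 ± 0.12 with shRING1B, -0.28 ± 0.12 with shEZH2 and -0.29 ± 0.12 with shBMI1 (SE; limma adjusted p = 0.72, 0.304 and 0.884). KLB, the co-receptor of hormone-like FGFs, was at 0.28 ± 0.10 with shRING1B and 0.23 ± 0.10 with shEZH2. FGFBP2, a relative of FGFBP1, was at -0.24 ± 0.10 with shRING1B and 0.03 ± 0.10 with shEZH2.

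Heparan sulfate carriers and the enzymes that shape their sugar chains hold FGF2 at the cell surface. Of 13 measured proteoglycans 0 passed, with a median of 0.10 with shEZH2. HSPG2, which encodes the basement membrane proteoglycan perlecan, was at 7.11 and 6.89 with shGFP and 7.47 and 7.56 with shEZH2 (log2 fold change 0.51 ± 0.14, SE; limma adjusted p = 0.137). The syndecan SDC2 lay above shGFP with all 3 hairpins, by 0.31 with shRING1B, 0.30 with shEZH2 and 0.23 with shBMI1 (each ± 0.10; adjusted p = 0.415, 0.189 and 0.884). Over all genes, 3.55% lay above both shGFP arrays on all 6 Polycomb arrays. The glypican GPC6 was at 0.26 ± 0.12 with shEZH2 and 0.31 ± 0.12 with shBMI1.

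Of 14 measured heparan sulfate enzymes 0 passed. The largest value was that of SULF2, a sulfatase that trims heparan sulfate outside the cell, with shRING1B. It read 8.16 and 7.57 with shGFP, 8.98 and 8.28 with shRING1B, 7.88 and 8.00 with shEZH2, and 8.37 and 7.66 with shBMI1 (log2 fold change with shRING1B 0.77 ± 0.30, SE; limma adjusted p = 0.534). The replicates of 3 hairpins lay far apart, and the shRING1B pair cleared the shGFP pair by little, as 18.2% of genes did by any amount. The related SULF1 was at 0.37 ± 0.14 with shRING1B, and the sulfotransferase HS3ST3A1 was at -0.34 ± 0.18 with shEZH2.

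Downstream of the receptors, 13 of 22 adaptors and kinases were measured and 0 passed. FRS2 and PTPN11 were not analysed here. MAP2K2, the kinase MEK2 below RAF, was at -0.51 ± 0.16 with shEZH2 (SE; limma adjusted p = 0.19). The adaptor GAB1 was at -0.34 ± 0.09 with shBMI1 (adjusted p = 0.656), with 7.62 and 7.70 on the shGFP arrays and 7.37 and 7.27 on the shBMI1 arrays. HRAS was at -0.22 with shBMI1.

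Of 11 measured genes on the list of feedback inhibitors, 0 passed. That list also held membrane proteins of the FLRT family, which bind FGF receptors without being known as inhibitors, and LRRC32, which is known for holding latent TGF-beta and not for FGF signalling. FLRT2 pointed opposite ways, at -0.45 ± 0.11 with shRING1B and 0.32 ± 0.11 with shEZH2 (SE; limma adjusted p = 0.346 and 0.206). FLRT3 was at -0.36 and -0.39 and LRRC32 at 0.56 and 0.45 in the same comparisons. Of the 3 measured Sprouty genes, SPRY2 was at -0.22 ± 0.10, SPRY4 at -0.21 ± 0.15 and SPRY3 at 0.11 ± 0.12 with shEZH2. The phosphatases DUSP4, DUSP5 and DUSP6 were at -0.17, -0.19 and -0.11. IL17RD, a membrane inhibitor of FGF signalling also called SEF, was at 0.31 ± 0.12 (adjusted p = 0.256). Both of its shEZH2 arrays lay above both shGFP arrays, as for 23.1% of genes. These 7 were named after their values were seen, so that each measured inhibitor is given.

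Of 13 measured FGF target genes 0 passed. With shEZH2, 3 of 13 had positive values, with a median of -0.13. Over all genes 7157 of 14884 had positive values, with a median of -0.0085. VEGFA, which drives vessel growth, was at 9.11 and 8.81 with shGFP, 9.58 and 9.21 with shRING1B, and 9.57 and 9.47 with shEZH2 (log2 fold change 0.56 ± 0.15 with shEZH2, SE; limma adjusted p = 0.122). The immediate early factor EGR1 was at 10.30 and 10.34 with shGFP and 10.01 and 9.89 with shEZH2 (-0.37 ± 0.10; adjusted p = 0.145). HMGA2 was at -0.44 ± 0.10 with shRING1B, -0.30 ± 0.10 with shEZH2 and 0.27 ± 0.10 with shBMI1 (adjusted p = 0.318, 0.21 and 0.833). The ETV factors, named after their values were seen, stayed within 0.2 of shGFP. With shEZH2, ETV1 was at -0.19 ± 0.09, ETV4 at -0.10 ± 0.10 and ETV5 at 0.17 ± 0.10. On all 6 Polycomb arrays ETV1 lay below both shGFP arrays, as did 4.16% of genes, and ETV5 above, as did 3.55%.

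**Figure D3:**
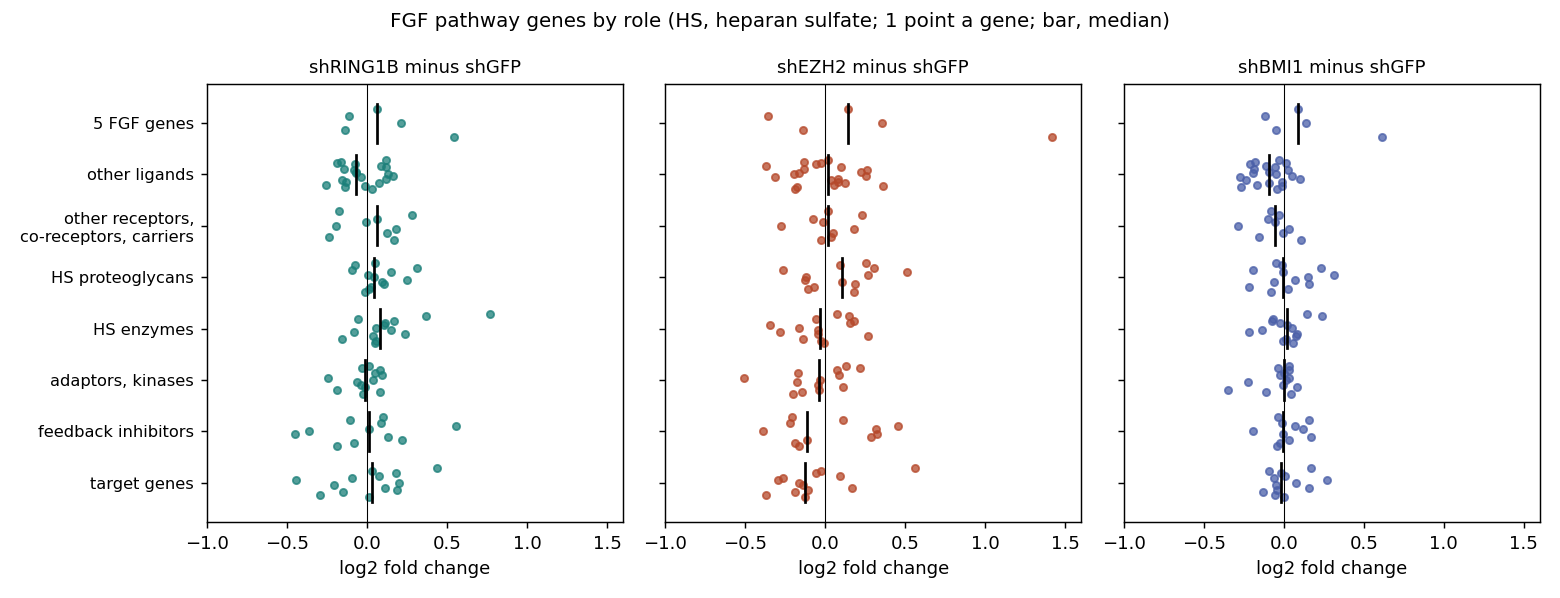
Log2 fold change against shGFP (x axis) of each measured pathway gene by role (rows), with 1 panel per Polycomb hairpin, 1 point per gene and a bar at the median of the row. FGF2 is the point at 1.42 with shEZH2, and the 94 pathway genes outside the 5 run from -0.51 to 0.56 in that panel.

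The splicing factors ESRP1 and ESRP2, which favour the epithelial splice form of FGFR2, differed little. ESRP1 was at 10.53 and 10.62 with shGFP and 10.65 and 10.61 with shEZH2, and the log2 fold changes of both genes with the 3 hairpins ran from -0.16 to 0.05 (limma adjusted p = 0.658 to 0.999). With a single probe set per gene, the splice forms of FGFR1, FGFR2 and FGFR3 could not be told apart.

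A further pair of lists set FGF2 beside other growth factor genes of keratinocytes. Of 9 measured growth factors, BTC, a ligand of the EGF receptor, rose with shEZH2 (log2 0.67 ± 0.11, SE; limma adjusted p = 0.0466), from 5.85 and 5.77 to 6.50 and 6.46. With shEZH2, 8 of the 9 had positive values, beside 7157 of 14884 genes. The BTC call was lost in 10 of 16 alternatives, among them leaving out any shGFP or shEZH2 array (highest adjusted p = 0.271 over arrays left out). EREG, another EGF receptor ligand, was at 0.45 ± 0.10 (adjusted p = 0.0989) and VEGFC at -0.39 ± 0.08 (adjusted p = 0.0865). Of 10 other receptor tyrosine kinases 0 passed. AXL was at 0.44 with shRING1B and -0.42 with shEZH2 (adjusted p = 0.288 and 0.0912), IGF1R at 0.48 with shBMI1 and MST1R at -0.33 with shRING1B.

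The genes whose values ran most like those of FGF2 over the 8 arrays, among 2832 protein-coding genes with a range of at least 0.5, were MDK (Pearson r = 0.97), EPS8 (0.97), FBXO32 (0.96), ULBP1 (0.95) and MSC (0.95). MDK encodes the heparin-binding growth factor midkine and EPS8 a substrate of the EGF receptor. FBXO32 encodes a ubiquitin ligase subunit, ULBP1 a ligand of the NKG2D receptor and MSC the transcription factor musculin. In all, 22 genes reached an r of at least 0.9. The 8 points share their hairpin groups and control arrays, so these values describe a common profile over 4 groups. Each of the 5 had its highest pair with shEZH2, by 0.52 (MDK) to 1.17 (MSC) above shGFP. That follows from picking them by their correlation with FGF2, itself highest there. Like FGF2, FBXO32 was apart on the shBMI1 arrays, at -0.07 and 0.43 relative to the shGFP mean.

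**Figure D4:**
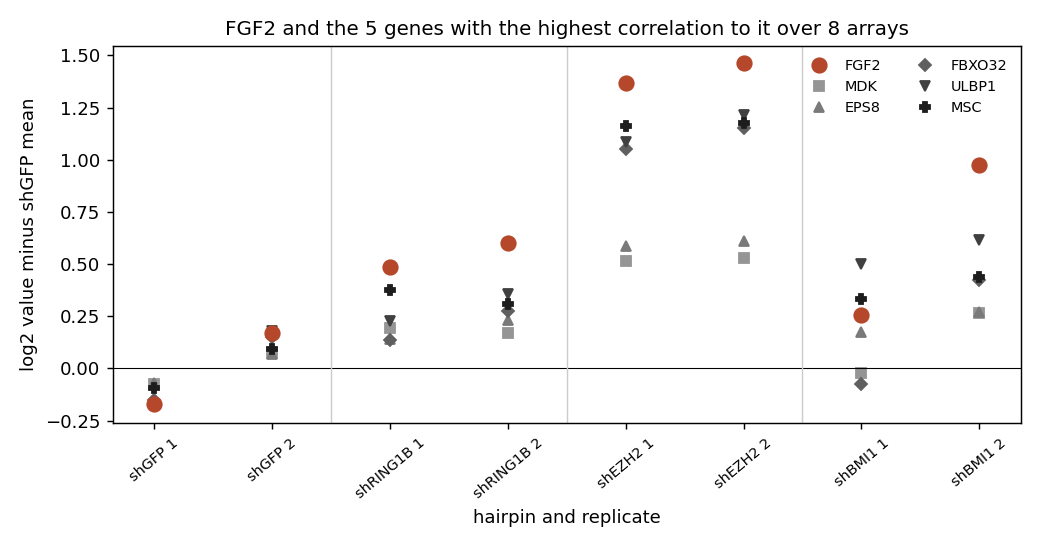
Log2 value minus the shGFP mean (y axis) on each of the 8 arrays (x axis) for FGF2 (large circles) and the 5 genes most correlated with it (other symbols). FGF2 lies at 1.37 and 1.46 on the shEZH2 arrays and at 0.26 and 0.98 on the shBMI1 arrays. The 5 genes also have their highest values on the shEZH2 arrays, which follows from their choice by correlation with FGF2.

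For the other 4 genes the closest profiles were HS3ST3B1, PODXL and TMOD1 for FGFR1 (r = 0.97, 0.97 and 0.96), GPATCH4, VGLL1 and RSPH4A for FGFR2 (0.98, 0.97 and 0.96), TEKT5, VWA3A and PSG4 for FGFR3 (0.95, 0.91 and 0.89) and OCM2, MARCO and C6orf47 for FGFBP1 (0.90, 0.89 and 0.88). VGLL1, a cofactor of TEAD transcription factors, followed FGFR2 with means of 10.48 with shGFP, 10.18 with shRING1B, 9.71 with shEZH2 and 10.17 with shBMI1. Between the 5 genes, FGF2 correlated with FGFR1 at 0.59 and with FGFR2 at -0.75, and FGFR1 with FGFR2 at -0.81, over the same 8 arrays.

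FGF2 is also made by fibroblasts, endothelial cells and melanocytes, so markers of such cells were read on the same arrays. Of 9 fibroblast markers 3 were measured, and their mean log2 value was 5.73 to 5.88 with shGFP, 5.92 to 5.99 with shRING1B, 6.26 to 6.47 with shEZH2 and 5.96 to 6.17 with shBMI1. DCN, which encodes the matrix proteoglycan decorin, rose with shEZH2 from 6.94 and 7.08 to 8.03 and 7.86 (log2 0.93 ± 0.10, SE; limma adjusted p = 0.0109), a call lost without any 1 of the shGFP or shEZH2 arrays (adjusted p up to 0.135). LUM was at 0.89 ± 0.23 (adjusted p = 0.12) and THY1 at -0.15 ± 0.15 (adjusted p = 0.669), while COL1A1, COL1A2, COL3A1, PDGFRB, FAP and POSTN were not analysed here. LUM had a mean of 4.57 over the arrays, at percentile 12.2 of all genes, so it was read at dim signal. DCN and LUM, like FGF2, lay above both shGFP arrays on both shEZH2 arrays, as did 23.1% of genes. The part of DCN and LUM in the FGF2 values was not tested.

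Of 7 melanocyte markers 6 were measured, with array means of 5.27 to 5.30 with shGFP, 5.28 to 5.39 with shRING1B, 5.36 to 5.43 with shEZH2 and 5.23 to 5.35 with shBMI1. MLANA rose with shEZH2 (log2 0.64 ± 0.11, SE; limma adjusted p = 0.046), from 4.18 and 4.19 to 4.80 and 4.85, though this was lost in 10 of 15 alternatives, among them leaving out any shGFP, shRING1B or shEZH2 array (adjusted p up to 0.281). MLANA had a mean of 4.47 over the arrays, at percentile 10.7 of all genes, so it was read at dim signal. Meanwhile TYR, TYRP1, PMEL, SOX10 and MITF did not pass, with values between -0.15 and 0.20. Of 7 endothelial markers 5 were measured, with array means of 5.49 with shGFP, 5.52 to 5.62 with shRING1B, 5.44 to 5.55 with shEZH2 and 5.53 to 5.70 with shBMI1. KDR, a receptor of VEGF, read 6.22 and 6.38 with shGFP, 7.15 and 6.67 with shRING1B, 6.11 and 6.26 with shEZH2, and 7.25 and 6.42 with shBMI1. Its log2 fold change was 0.61 ± 0.26 with shRING1B, -0.11 ± 0.26 with shEZH2 and 0.54 ± 0.26 with shBMI1 (SE; limma adjusted p = 0.565, 0.868 and 0.903). KDR thus lay above shGFP with the same 2 hairpins where FGF2 was at 0.54 and 0.62, and not with shEZH2. Such pairs above shGFP were seen for 18.2% of genes with shRING1B and 14% with shBMI1. PECAM1, CLDN5, EMCN and VWF were at -0.08, -0.04, -0.10 and 0.01 with shRING1B. With shBMI1 they were at -0.15, -0.01, -0.04 and 0.29. Of 8 leukocyte markers 4 were measured, at 6.33 to 6.46 with shGFP, 6.38 to 6.55 with shRING1B, 6.62 to 6.65 with shEZH2 and 6.30 to 6.38 with shBMI1. In both lists 0 genes passed by limma in the 3 comparisons with shGFP. At an unadjusted p under 0.05 there was 1 endothelial marker in each comparison (KDR with shRING1B, VWF with shEZH2 and shBMI1). There was 1 leukocyte marker with shEZH2 (CD163). Over all genes the share was 8.6% with shRING1B, 16.2% with shEZH2 and 5.58% with shBMI1. The part of these markers in the FGF2 values was not tested.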

How the data were processed

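The deposited values are log2 signals of probe sets, which the authors computed with RMA, per the submitters' processing notes (limma is named there too). RMA subtracts background, gives every array the same quantiles and summarises the probes of a set, so a change common to most genes is hidden. The sources used here name no version, probe set definition or genome build. There were 53617 probe sets with 0 missing values, and array medians lay between 5.49 and 5.52. A platform annotation, updated through a RefSeq gene table (GRCh38.p14), gave 16098 probe sets 1 symbol, 0 several and 37519 none. The unnamed ones were left out. The probe set with the highest mean stood for each of 779 genes with several, giving 14884 genes.

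Log2 fold changes, SEs and two-sided p-values came from limma 3.58.1 in R 4.3.3, fitted to all 8 arrays with a mean for each hairpin, which leaves 4 residual degrees of freedom. Moderation by eBayes used no trend, and no gene was filtered on signal. These were adjusted by Benjamini-Hochberg over all genes within a comparison, with a threshold of 0.05. The 95% intervals come from the same fit. The number of arrays limits the precision. On simulated data, the fit called 29% to 51% of genes changed by 0.5 log2 units and 94% to 98% of those changed by 1. These ranges run over the 3 comparisons with shGFP, each with 200 changed genes among 14884. The simulated noise was independent and normal, with each gene's moderated spread, and 4.35% to 8.02% of the calls were unchanged genes. The shares are averages over genes drawn at random and do not apply to a gene of wide spread such as FGF2.

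The members, lists and likeness rule were chosen with earlier results of these data known. The text names the 5 members, called genes of the other lists and otherwise up to 3 genes per list with the largest change, and for likeness the 5 genes (FGF2) or 3 genes (other members) with the highest Pearson r. Alternatives were the replicate block, only the arrays compared, quantile normalization, median centring, leaving out the dimmest 30% of genes, the mean of probe sets, a trended robust variance and leaving out each array. Fits without shEZH2 arrays and over protein-coding genes alone were added after seeing the data. Promoter windows came from a RefSeq table that held 4 of the 5 members.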

Additional observations from a re-analysis of the deposited data

How the results depend on the processing

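Of 30 log2 fold changes (5 genes in 6 comparisons), 22 kept their direction under every alternative run. The FGF2 log2 fold change between shEZH2 and shGFP, a description with no test, ran from 1.25 to 1.59 over 16 alternatives. Both shEZH2 arrays lay far above both shGFP arrays, so leaving out an array could not turn its direction. The count of called members, which leaves out FGF2 where shEZH2 is compared, was 0 in all 6 comparisons under every alternative run. The count of pathway genes called with shEZH2 was 3 of 94 instead of 0 with a trended robust variance, where 4.35% of all genes passed. With shRING1B and shBMI1 it did not move. Over all genes, the 109 calls with shEZH2 against shGFP became 39 with only the 4 arrays compared, 648 with a trended robust variance, 169 over protein-coding genes alone, 409 without the dimmest 30% of genes and 0 to 91 on leaving out each array.

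Direction turned only for small differences. For FGFR3 between shRING1B and shBMI1 the value became 0.0087 after quantile normalization and 0.0020 after median centring, and it ranged from -0.10 to 0.048 over arrays left out. Other ranges over arrays left out that crossed 0 were -0.43 to 0.29 for FGF2, -0.062 to 0.21 for FGFR1 and -0.095 to 0.11 for FGFR2 (shRING1B minus shBMI1), -0.0125 to 0.14 for FGFR3 (shRING1B minus shGFP), -0.0049 to 0.10 for FGFR3 (shEZH2 minus shBMI1), -0.095 to 0.0030 for FGFBP1 (shBMI1 minus shGFP) and -0.091 to 0.096 for FGFBP1 (shRING1B minus shEZH2). FGFBP1 has no value without the dimmest 30% of genes.

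The labels do not say whether equal replicate numbers in the titles mark a shared batch. FGF2 was higher on replicate 2 than on replicate 1 with every hairpin. The replicate block lowered the SE of its log2 fold changes from 0.22 to 0.16 (limma adjusted p = 0.357 with shRING1B and 0.584 with shBMI1). Differences between replicates correlated across genes at 0.00 to 0.25 between hairpins. With the replicate block, 0 of these members were called in any comparison, as without it, and with shEZH2 against shGFP 108 genes in place of 109 over the array. The block ended the shEZH2 calls of BTC (limma adjusted p = 0.0599) and MLANA (0.0638), but not that of DCN (0.0164), with log2 fold changes of 0.67, 0.64 and 0.93 as without it. Without the shEZH2 arrays, 0 members were called with shRING1B or shBMI1.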
